A study of Mus musculus with 5 samples.

Results

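Gene expression was compared between osteoclast-forming co-cultures started from wild-type (Fos+/+) bone marrow and from wild-type (Fos+/+) spleen. Each group is 1 array. The folds therefore compare single arrays, without any replicate error, test or p-value. In the labels, both kinds of cells shared a dish with ST2-T stromal cells for 6 days, with dexamethasone and 1,25-dihydroxyvitamin D3 in the medium. Each dish was taken whole, so its RNA comes from haematopoietic and stromal cells together. In such a mixture, fewer cells of a type and less RNA per cell cannot be told apart. The other 3 arrays of the series, all from Fos-/- spleen cells under the same co-culture conditions, are given beside the members. They are Fos-/- spleen without virus, with a deltaNFAT virus and with a virus encoding green fluorescent protein (GFP). The number of animals that gave cells and any batches of the arrays are not in the labels used here.

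The comparison took every probe set that was no control and carried 1 gene symbol, 10833 of the 12488 on the array. These stand for 8251 genes. An intensity floor of 20 was set, and a gene entered the comparison when the brighter of the 2 arrays reached 40, which left 6176 probe sets and 5281 genes. A gene was called higher or lower when the arrays differed by 2-fold or more. Any gene that reached 40 in one array and lay at or under the floor in the other is called by this rule alone, and "at least" then stands before its fold. A list member counts as measured when either of the 2 arrays exceeded the floor. List counts are over measured members unless stated, and some of these were too dim for a call. The shares over all genes to set beside any list are 13.1% higher and 7.20% lower, taken over the 5281.

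Osteoclasts are multinucleated cells that resorb bone, and they form by fusion of precursors of the monocyte and macrophage lineage. The stromal cells supply macrophage colony-stimulating factor (M-CSF) and RANK ligand, and RANK signalling in the precursor leads through AP-1, of which Fos is a subunit, to the transcription factor Nfatc1 and the resorption genes. Bone marrow and spleen both contain such precursors. Bone marrow is also the main site of granulocyte production in the adult mouse, where neutrophil precursors fill their granules in stages.

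Fos+/+ bone marrow and Fos+/+ spleen differed in many genes, and more were higher in bone marrow than lower. Of the 5281 genes, 692 (13.1%) were higher in bone marrow and 380 (7.20%) were lower, 20.3% in all. By probe set the shares were 13.4% higher and 7.43% lower. Differences of 4-fold or more were seen for 138 higher genes (2.61%) and 52 lower genes (0.985%). The spleen array lay at or under the floor for 220 of the 692 higher genes (31.8%), and the bone marrow array for 128 of the 380 lower ones (33.7%). The excess of higher genes depends on the scaling of the arrays. After quantile normalization, 522 genes were higher and 497 lower, so that 51.2% of the calls were upward where the deposited scale gave 64.6%. The median log2 ratio over 6094 genes above the floor in either array was 0.09 as deposited and -0.03 after quantile normalization. Fos, the gene targeted in the Fos-/- groups, read 614 in Fos+/+ bone marrow, 848 in Fos+/+ spleen, 426 in Fos-/- spleen, 581 for deltaNFAT and 607 for GFP. Its signal thus did not separate the labelled genotypes clearly, and Fos+/+ and Fos-/- are used here as the labels give them. Whether the probe set lies in the deleted part, and how much of its signal comes from the stromal cells, was not tested.

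Of the 5 arrays, Fos+/+ bone marrow was the brightest and Fos+/+ spleen the dimmest by median intensity, at 43.2 and 35. They also had the highest and lowest shares of probe sets above the floor, 62.1 and 58.2%. Control probe sets at the 3-prime end of Actb gave 1.02 to 1.31 times the signal of those at its 5-prime end, and for Gapdh this ratio lay between 0.767 and 0.851.

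Genes of neutrophil granules were the clearest group on the bone marrow side, and the osteoclast list lay lowest of all lists in its median. Of the neutrophil list, 15 of 20 measured genes were higher in bone marrow and 0 lower. The median log2 ratio was 2.10. Of the osteoclast list, 1 of 20 was higher and 6 were lower, with a median of -0.57. Over all genes 13.1% were higher and 7.20% lower.

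**Figure D1:**
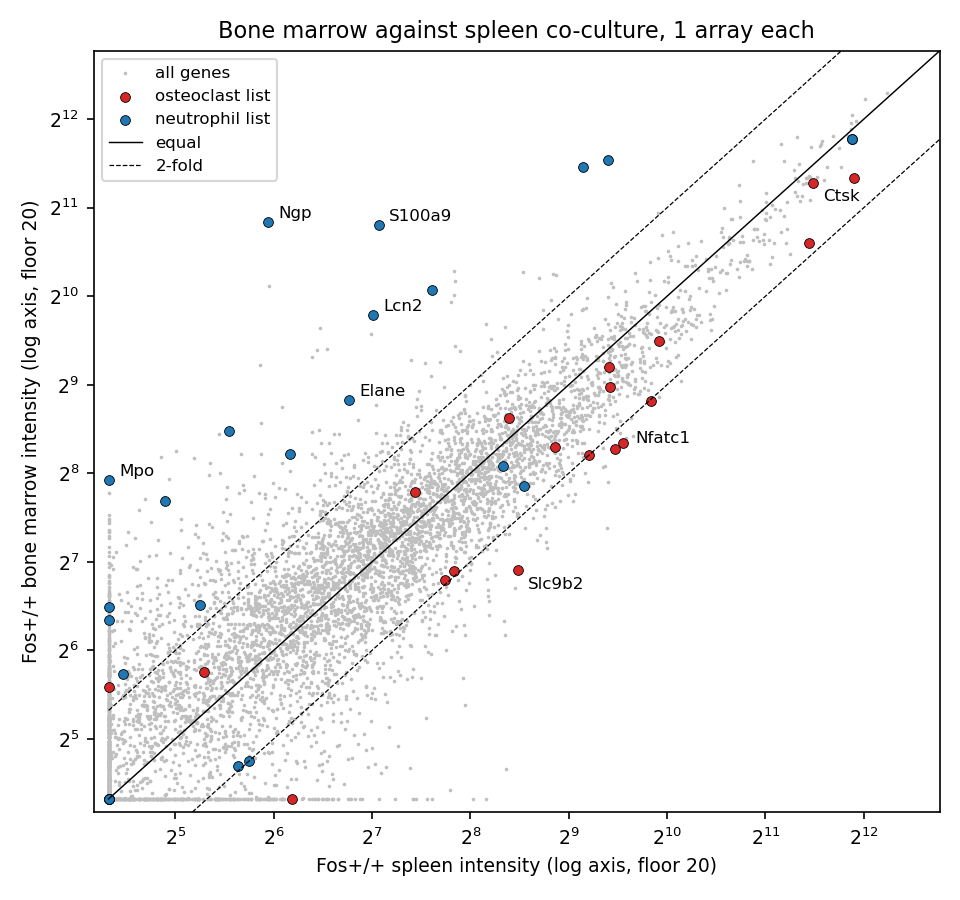
Intensity of each gene in Fos+/+ bone marrow (vertical log axis) against Fos+/+ spleen (horizontal log axis), 1 array each, with values under 20 drawn at 20. The solid line marks equal values and the dashed lines 2-fold, 15 neutrophil list members lie beyond the upper dashed line, and of the 20 osteoclast list members 16 lie under the solid line and 1, Itgb3, beyond the upper dashed line.

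Neutrophil granules are filled in order during maturation, first the azurophil granules with myeloperoxidase and serine proteases, then the specific granules with lactoferrin and cathelicidin. The promoters of 3 azurophil and 2 specific granule genes, and of the osteoclast protease gene Ctsk for comparison, are shown because the 5 granule genes were called higher in bone marrow and Ctsk, bright in both arrays, was called neither way. They are taken from RefSeq's table for GRCm38.p6, 5′ to 3′, from 250 bases before to 50 bases after the annotated start. All lie on the plus strand, Mpo at chr11:87793534-87793833, Elane at chr10:79886062-79886361, Prtn3 at chr10:79879417-79879716, Ngp at chr9:110419558-110419857, Ltf at chr9:111019042-111019341 and Ctsk at chr3:95498960-95499259. Capitals mark the 4 motifs searched on both strands, GAGGAA (a PU.1 core), TTGCNNAA (C/EBP), TGTGGT (RUNX) and TGANTCA (AP-1).
Mpo: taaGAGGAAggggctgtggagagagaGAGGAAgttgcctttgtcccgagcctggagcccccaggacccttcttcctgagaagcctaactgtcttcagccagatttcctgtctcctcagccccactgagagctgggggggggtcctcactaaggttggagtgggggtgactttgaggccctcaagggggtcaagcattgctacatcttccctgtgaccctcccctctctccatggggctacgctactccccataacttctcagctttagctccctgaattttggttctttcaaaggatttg
Elane: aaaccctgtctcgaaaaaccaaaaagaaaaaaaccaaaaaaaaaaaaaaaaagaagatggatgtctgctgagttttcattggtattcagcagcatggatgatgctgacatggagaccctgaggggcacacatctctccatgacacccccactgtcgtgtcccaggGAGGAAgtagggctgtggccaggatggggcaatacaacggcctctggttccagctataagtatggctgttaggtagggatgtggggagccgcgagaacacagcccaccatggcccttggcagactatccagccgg
Prtn3: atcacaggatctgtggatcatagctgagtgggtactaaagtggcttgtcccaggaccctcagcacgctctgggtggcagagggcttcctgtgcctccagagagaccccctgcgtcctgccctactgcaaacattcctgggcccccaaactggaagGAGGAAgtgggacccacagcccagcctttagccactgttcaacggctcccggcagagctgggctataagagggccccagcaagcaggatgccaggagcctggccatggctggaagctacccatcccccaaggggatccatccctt
Ngp: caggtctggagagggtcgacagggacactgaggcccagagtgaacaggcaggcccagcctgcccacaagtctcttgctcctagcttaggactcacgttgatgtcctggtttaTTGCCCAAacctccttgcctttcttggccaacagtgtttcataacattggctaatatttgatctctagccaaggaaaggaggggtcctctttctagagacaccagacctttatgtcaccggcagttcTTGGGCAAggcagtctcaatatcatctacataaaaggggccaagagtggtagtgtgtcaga
Ltf: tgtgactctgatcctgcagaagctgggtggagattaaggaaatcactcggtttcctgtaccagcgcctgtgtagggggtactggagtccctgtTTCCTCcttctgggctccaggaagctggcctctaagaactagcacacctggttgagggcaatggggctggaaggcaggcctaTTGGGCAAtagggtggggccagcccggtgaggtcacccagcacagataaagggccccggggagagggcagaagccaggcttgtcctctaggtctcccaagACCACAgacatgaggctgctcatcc
Ctsk: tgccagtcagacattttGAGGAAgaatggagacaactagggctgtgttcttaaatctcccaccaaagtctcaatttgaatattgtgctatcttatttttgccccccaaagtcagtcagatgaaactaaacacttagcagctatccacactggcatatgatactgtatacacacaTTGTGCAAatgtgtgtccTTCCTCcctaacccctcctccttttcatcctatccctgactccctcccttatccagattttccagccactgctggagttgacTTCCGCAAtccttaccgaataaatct
The PU.1 letters occurred 2 times in the Mpo window and once each in those of Elane, Prtn3 and Ltf, in Ltf on the reverse strand. The Ngp window held 2 C/EBP matches and no PU.1 match. The Ctsk window held 2 of each. Among the 15 neutrophil list members higher in bone marrow, 10 windows held the PU.1 letters, 5 those of C/EBP, 5 those of RUNX and 1 those of AP-1. Over 27025 promoters of the same length, the shares with a match were 28.3%, 10.8%, 16.9% and 7.93% in that order. These are matches of letters and describe neither binding nor a cause.

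Among the azurophil granule genes, Mpo, the gene of myeloperoxidase, read 243 in Fos+/+ bone marrow and 9.1 in Fos+/+ spleen, at least 12.2-fold higher. It was under the floor in Fos-/- spleen and read 82.5 for deltaNFAT and 79.5 for GFP. The value comes from a probe set with a suffix for shared sequence, and the other Mpo probe set read 28.2 in bone marrow and 17.0 in spleen, too dim for a call. Elane, neutrophil elastase, stood out in bone marrow alone. It read 453 there, 109 in Fos+/+ spleen, 115 in Fos-/- spleen, 107 for deltaNFAT and 116 for GFP, a 4.16-fold difference between the Fos+/+ arrays. Prtn3, proteinase 3, read 205 in bone marrow, 29.7 in Fos+/+ spleen, 75.6 in Fos-/- spleen, 96.8 for deltaNFAT and 118 for GFP, and was 6.92-fold higher. Ctsg, cathepsin G, was at least 4.06-fold higher at 81.1 against 14.7. All 4 had their highest value of the 5 arrays in bone marrow.

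The specific granule genes were brighter and showed a graded order over the arrays. Ngp, neutrophilic granule protein, had the largest fold of all genes that exceeded the floor on both sides. It read 1835 in bone marrow, 61.5 in Fos+/+ spleen, 540.3 in Fos-/- spleen, 701 for deltaNFAT and 1165 for GFP, and was 29.8-fold higher in bone marrow. Ltf, lactoferrin, read 358 in bone marrow, 46.8 in Fos+/+ spleen, 113 in Fos-/- spleen, 155 for deltaNFAT and 214 for GFP, a 7.65-fold difference. Lcn2, the siderophore-binding lipocalin, read 885 in bone marrow, 129 in Fos+/+ spleen, 257 in Fos-/- spleen, 402 for deltaNFAT and 639 for GFP, a 6.89-fold difference. Its dimmer probe set read 84.3 and 69.9 and did not pass. Camp, the cathelicidin gene, was 5.53-fold higher at 1078 against 195. In Ngp, Ltf, Lcn2 and Camp the order was the same, with bone marrow highest, then GFP, deltaNFAT, Fos-/- spleen and Fos+/+ spleen.

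The calprotectin subunits S100a9 and S100a8, calcium-binding proteins abundant in neutrophils and monocytes, followed that order too. S100a9 read 1791 in bone marrow, 134 in Fos+/+ spleen, 416 in Fos-/- spleen, 1078 for deltaNFAT and 1524 for GFP, and was 13.3-fold higher in bone marrow than in Fos+/+ spleen. S100a8 was 4.41-fold higher at 2971 against 674. Chil3, a chitinase-like protein of myeloid cells, read 2816 against 567 and was 4.97-fold higher. The peptidoglycan recognition protein gene Pglyrp1, outside the list, was 9.47-fold higher at 304 against 32.1, and its other probe set read 144 and 10.1. Wfdc21 was 7.98-fold higher at 349 against 43.7.

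The oxidase genes Cybb and Ncf1 and the receptor gene Fpr2 were higher in bone marrow than in Fos+/+ spleen, but had their highest values in virus arrays. Cybb, the catalytic subunit of the oxidase, read 299 in bone marrow and 72.0 in Fos+/+ spleen (4.15-fold), and 352 for deltaNFAT and 407 for GFP. Ncf1, a cytosolic subunit, was at least 4.51-fold higher at 90.2, and read 144 in Fos-/- spleen, 261 for deltaNFAT and 237 for GFP. Fpr2, a formyl peptide receptor, was 2.39-fold higher at 91.1 against 38.1. Ly6g, a neutrophil surface antigen, was 2.39-fold higher at 53.0 against 22.2, both dim. Of the 15 higher genes, 12 had their highest value in bone marrow, and Cybb, Ncf1 and Fpr2 did not.

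Members of the list that were not called were Mmp9, at 3504 and 3759 and also an osteoclast gene, the receptor Csf3r at 272 and 323, the oxidase subunit Ncf4 at 232 and 375, and the dim Gfi1 and Itgam. The remaining 3 members on the array, Mmp8, Cxcr2 and Il1b, were under the floor in both arrays. The median log2 ratio of the list in bone marrow over the other arrays was 1.47 over Fos-/- spleen, 0.73 over deltaNFAT and 0.45 over GFP. These ratios share the bone marrow array with the 2.10 over Fos+/+ spleen and are no independent check of it.

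**Figure D2:**
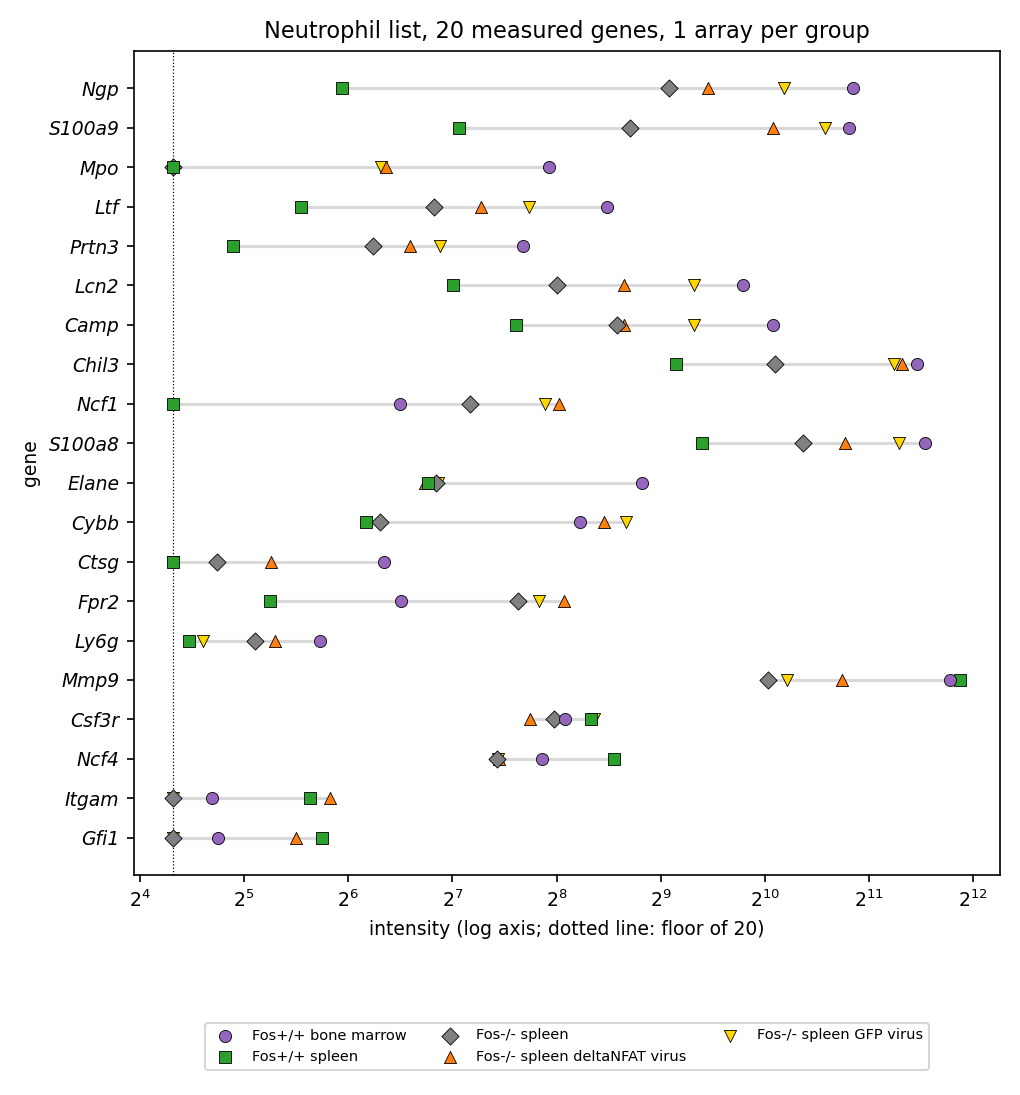
Intensity (log axis, values under 20 drawn at 20) of the 20 measured neutrophil list genes, 1 symbol per array, ordered by the ratio of Fos+/+ bone marrow to Fos+/+ spleen. Purple circles (bone marrow) lie farthest right for 12 of the 15 genes called higher, and green squares (Fos+/+ spleen) lie farthest left for most of these.

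Genes of the resorbing osteoclast were bright in both Fos+/+ arrays and most were somewhat lower in bone marrow. Ctsk, the collagen-degrading cathepsin K, read 2495 in bone marrow and 2862 in spleen, a ratio of 1.15 towards spleen. Acp5, tartrate-resistant acid phosphatase, read 2579.5 and 3836, 1.49-fold towards spleen. Car2, the carbonic anhydrase that supplies protons, read 719 and 971, and Calcr, the calcitonin receptor, 395 and 337. Neither these 4 nor Mmp9 reached 2-fold, and in the 3 Fos-/- arrays each of the 5 was lower than in both Fos+/+ arrays.

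The osteoclast members called lower in bone marrow include a regulator, a coupling factor and transport proteins. Nfatc1, the transcription factor that directs the late osteoclast programme, read 325 in bone marrow and 751 in spleen, a 2.31-fold difference, against 23.5 in Fos-/- spleen, 82.7 for deltaNFAT and 23.4 for GFP. Sema4d, a semaphorin that osteoclasts display to osteoblasts, read 309 and 707 (2.29-fold). Slc9b2, a sodium-proton exchanger of osteoclasts, read 120.3 and 357 and was 2.97-fold lower. Bone marrow thus lay between Fos+/+ spleen and all 3 Fos-/- arrays in these 3 genes. Tcirg1, the osteoclast proton pump subunit, was 2.02-fold lower at 452 against 914, and Gpr137b, a lysosomal membrane protein, 2.01-fold lower at 295 against 593. Both stand at the edge of the rule and did not pass after quantile normalization. Fosl1, an AP-1 subunit, was at least 3.65-fold lower, with 72.9 in spleen, 71.4 in Fos-/- spleen and 5.5 in bone marrow. This call was lost at floors of 50 and 100.

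Ckb, a creatine kinase of osteoclasts, at 1559 against 2784 (1.79-fold), Cd200, a surface glycoprotein, at 111 against 214 (1.94-fold), and Myo1d, a myosin, at 119 against 229 (1.92-fold) were lower without reaching 2-fold. Clcn7, the chloride channel of the resorption space, read 315 and 466, Itgav, an integrin chain, 588 and 678, and Atp6v1c1, a pump subunit, 502 and 685. Tnfrsf11a, which encodes RANK, read 221 in bone marrow and 173 in spleen, and the adaptor Traf6 53.9 and 39.1. The only member called higher was the integrin chain Itgb3, at 48.2 against 14.0 and thus dim. Src was under the floor in every array. Over the 20 measured members, spleen had the highest value of the 5 arrays in 16 and bone marrow in 4. The list's median log2 ratio in bone marrow was 1.77 over Fos-/- spleen, 1.19 over deltaNFAT and 2.04 over GFP, ratios that share the bone marrow array.

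**Figure D3:**
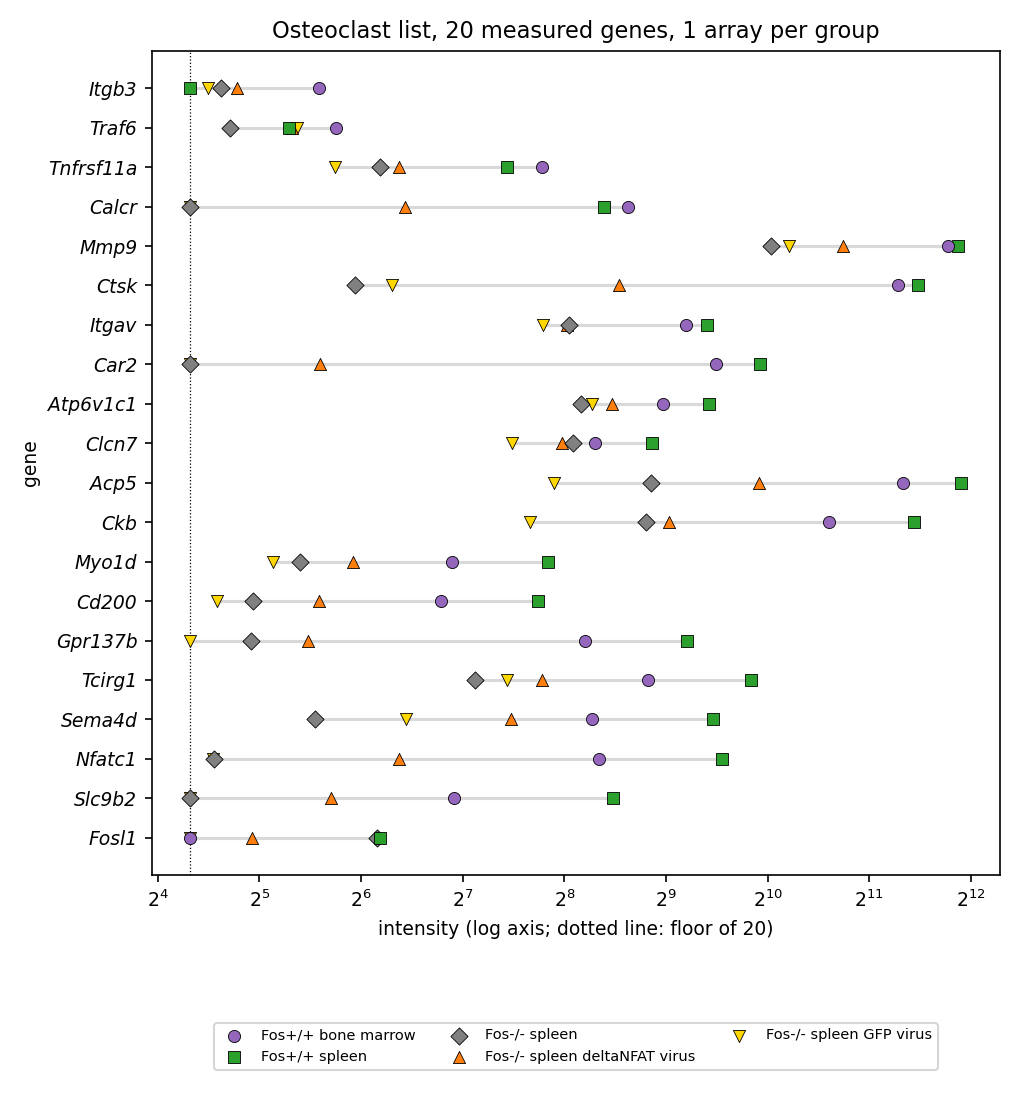
Intensity (log axis, values under 20 drawn at 20) of the 20 measured osteoclast list genes, 1 symbol per array, ordered by the ratio of Fos+/+ bone marrow to Fos+/+ spleen. In 16 genes the green square (Fos+/+ spleen) lies farthest right, and for most genes both Fos+/+ symbols lie right of the 3 Fos-/- symbols.

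Other transcription factors and signalling genes of the osteoclast pathway were lower or alike in bone marrow. The list of RANK, M-CSF and immunoreceptor (ITAM) signalling had 0 of 23 higher and 3 lower, beside 13.1% and 7.20% over all genes. Its median was -0.32, against 0.09 over all genes. Jun, an AP-1 subunit, read 27 in bone marrow, 93.2 in Fos+/+ spleen, 104 in Fos-/- spleen, 89.4 for deltaNFAT and 78.5 for GFP, and was 3.45-fold lower. The bone marrow array alone was low in Jun. Fosl2, another AP-1 subunit, was 3.13-fold lower at 28.6 against 89.6, and the adaptor Blnk 2.08-fold lower at 72.9 against 152. Junb read 268 and 486, the myeloid factor Spi1 595 and 1024, the calcineurin regulator Rcan1 158 and 310 and Csf1r, the M-CSF receptor, 1255 and 1510, none of them reaching 2-fold. The Jun and Fosl2 calls were lost at a floor of 50, since their spleen intensities lie under 100. The Blnk call was lost at a floor of 100.

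Proton pump subunits, mitochondrial and glycolytic genes also had medians below that of all genes. Of 15 V-ATPase subunits, 11 had a ratio below 1 in bone marrow over spleen, with a median log2 ratio of -0.36, but only Tcirg1 passed 2-fold. Atp6v0e read 637 and 1088, and Atp6v0b 1316 and 2119. Of 40 measured oxidative phosphorylation genes, 38 were bright enough for a call. Of these, 4 were lower and 1 higher, beside 7.20% and 13.1% over all genes. The median of the 40 was -0.37, and 28 of the 40 had their highest value in the Fos+/+ spleen array. Atp5k, an ATP synthase subunit, was 3.27-fold lower at 52.0 against 170.0, and Atp5o, another, 2.10-fold lower at 350.0 against 736. For Atp5d and Cox4i1 the probe sets disagreed, since those without a suffix gave log2 ratios of 0.28 and 0.60 where the brightest gave -1.30 and -1.50. Of 16 glycolysis genes 0 passed 2-fold either way (median -0.41), with lactate dehydrogenase Ldha at 1398 and 2148 as an example. The lysosome list had a median of -0.12 with 0 of 28 called.

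In the macrophage list bone marrow was higher in 5 of 24 genes, Mrc1, Msr1, Mertk, Marco and Apoe, and lower in 0, beside 13.1% and 7.20% over all genes. The list median was 0.26. Mrc1, the mannose receptor, read 596 in bone marrow, 58.1 in Fos+/+ spleen, 214 in Fos-/- spleen, 1140.4 for deltaNFAT and 1045 for GFP, and was 10.3-fold higher in bone marrow. Msr1, a scavenger receptor for modified lipoproteins, read 299, 50.8, 66.0, 335 and 295 in the same order of arrays and was 5.89-fold higher. Its other probe set read 236 and 125, under 2-fold. Mertk, a receptor for dying cells, was 2.45-fold higher at 135 against 55.0. Marco, a further scavenger receptor, was 2.07-fold higher at 223 against 108, below the 761 of Fos-/- spleen, and its call was lost after quantile normalization and after median centring. Apoe was 2.05-fold higher at 1964 against 958, a call lost after median centring and with the mean of all probe sets. Cd68 (1352 and 1819), Cd14 (572 and 567), C1qa (1356 and 1218) and the F4/80 gene Adgre1 (401 and 327) did not reach 2-fold. The summed intensity of the 24 genes was 25970.4 in bone marrow, 22285 in Fos+/+ spleen and 28394 to 34880.0 in the Fos-/- arrays.

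Markers of other cells were looked at in the same way, because each dish was harvested whole. Fibroblast and matrix genes of the stroma had a median of 0.00, with 3 of 33 higher and 1 lower, and a summed intensity of 22672 in bone marrow and 22989 in spleen. Col1a1, the main collagen of fibroblasts and osteoblasts, read 3417 and 3861. The T cell receptor genes Cd3d, Cd3e and Cd3g were under the floor in all 5 arrays. Of the 13 erythroid genes on the array, Alas2, Hbb-b2, Epb42, Epor and Tal1 were under the floor in bone marrow and Fos+/+ spleen. The transferrin receptor gene Tfrc, which dividing cells also express, read 926 and 566, Klf1, an erythroid transcription factor, 346 and 343, and the globin gene Hba-a1 97.3 and 89.8. Of the 6 platelet genes, Pf4 and Gp1bb were under the floor in all 5 arrays, and Gp9 read 164 and 33.4. The part of cell composition in the differences was not tested.

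Several genes of matrix, growth factors and their receptors were far apart between the arrays. They are grouped here after their values were seen, and which cells of the dish express them was not measured. Ogn, the matrix proteoglycan osteoglycin, read 1111 in bone marrow and 62.1 in Fos+/+ spleen, a 17.9-fold difference, and 99.1 in Fos-/- spleen, 1572 for deltaNFAT and 1667 for GFP. Its other probe set read 870 and 13.3. Kitl, the ligand of the Kit receptor on progenitors and mast cells, read 675 in bone marrow, 87.0 in Fos+/+ spleen, 104 in Fos-/- spleen, 640 for deltaNFAT and 687 for GFP (7.75-fold). Angpt1, the angiopoietin that activates the Tek receptor, read 209, 25.8, 25.4, 262 and 402 in that order and was 8.10-fold higher. The natriuretic peptide receptor Npr3 was 7.73-fold higher at 192 against 24.8, the membrane protease Mme at least 8.79-fold higher, and Nrp1, a semaphorin and growth factor receptor, 2.80-fold higher at 668 against 239. In each of these genes both virus arrays were high as well, and both arrays without virus from spleen read lower than bone marrow. For Nrp1, however, Fos-/- spleen read 347, within 2-fold of bone marrow.

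Closeness of the virus arrays to bone marrow was counted over all higher genes, without a condition on Fos-/- spleen. Of the 692 genes higher in bone marrow, 436 (63.0%) were equally high in the virus arrays, meaning that the deltaNFAT and GFP arrays both reached 40 and both lay within 2-fold of bone marrow. Among the 4209 genes bright enough and called neither way, both virus arrays lay within 2-fold of bone marrow in 86.5%. Among all 5281 the share was 82.2%. Closeness by itself is thus common. The 63.0% lies below both shares, but these carry no minimum of 40 for the virus arrays. The 692 were also chosen for a high value in bone marrow, so the shares are not like for like. Both virus arrays lay within 2-fold of Fos+/+ spleen in 198 of the 692 (28.6%) and in 153 of the 380 lower genes (40.3%). This share was not counted over all genes, and a gene with values in between can count in both ways. Of the 436, Fos-/- spleen without virus was at least 2-fold under bone marrow in 266 (61.0%) and within 2-fold of it in 170 (39.0%). The median intensity of the 436 was 130 in bone marrow, 41.0 in Fos+/+ spleen, 57.9 in Fos-/- spleen, 124 for deltaNFAT and 133 for GFP. Fos genotype, tissue and virus differ between these arrays in different combinations. None of them alone separates bone marrow and the virus arrays from the spleen arrays without virus. A tissue difference in bone marrow combined with a virus difference in the virus arrays would give the same grouping. Without replicate arrays this was not tested. Whether preparation batches separate the arrays in this way was not tested either, since no label gives them.

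The 12 largest folds of this group by the naming rule include Ogn, S100a9, Mrc1, Mme and Angpt1, given above. The rest of the 12 are Macf1, Hsp90aa1, Smc4, Dek, Sec62, Slc25a3 and Ifi202b. Hsp90b1, Dnaja1, Pbrm1, Kif5b and Septin7, also given here, were equally high but are not among the 12. Hsp90aa1, the inducible cytosolic chaperone, read 798 in bone marrow, 88.9 in Fos+/+ spleen, 60.1 in Fos-/- spleen, 679 for deltaNFAT and 592 for GFP, and was 8.97-fold higher in bone marrow. Hsp90b1, its counterpart in the endoplasmic reticulum, read 1033, 229, 205, 1066 and 1299 in that order (4.52-fold). These and Dnaja1 (2.74-fold) were the 3 members higher of 22 measured in the heat shock and unfolded protein list. That is near the 13.1% higher over all genes. All 3 were equally high in the virus arrays. The list's median was 0.24, and Hspd1 (1.51-fold) and Hsph1 (1.70-fold) did not pass. Macf1, a crosslinker of microtubules and actin, was 10.1-fold higher, the chromatin remodelling subunit Pbrm1 8.0-fold, the kinesin Kif5b 7.91-fold and Septin7 7.58-fold. Septin7 read 637 in bone marrow, 84.0 in Fos+/+ spleen, 57.9 in Fos-/- spleen, 636 for deltaNFAT and 647 for GFP. The condensin subunit Smc4 was at least 11.9-fold, the chromatin protein Dek at least 11.0-fold and the translocon component Sec62 at least 9.22-fold higher, all 3 at or near the floor in both spleen arrays without virus.

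**Figure D4:**
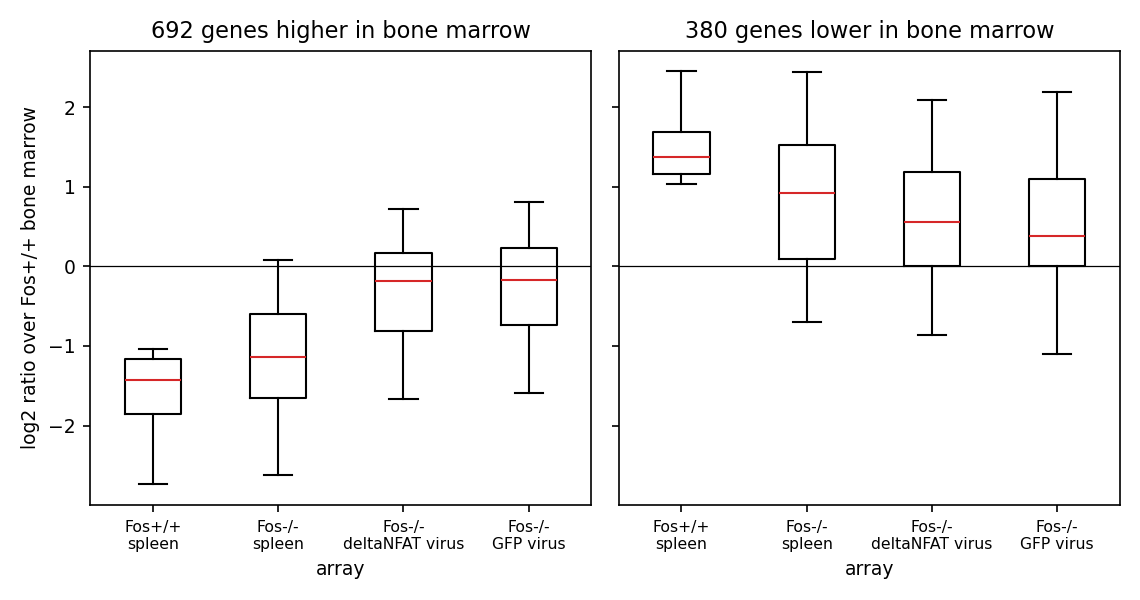
Log2 ratio of each other array over Fos+/+ bone marrow for the 692 genes higher (left) and the 380 genes lower (right) in bone marrow than in Fos+/+ spleen, with boxes from the lower to the upper quartile, red medians and whiskers at the 5th and 95th percentiles over genes. For the higher genes the medians are -1.42 in Fos+/+ spleen and -1.14 in Fos-/- spleen but -0.19 for deltaNFAT and -0.17 for GFP, where the choice of genes fixes the Fos+/+ spleen box and all ratios share the bone marrow array.

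In the neutrophil list, 4 of the 15 higher members were equally high in the virus arrays, beside 63.0% of all higher genes. In a few genes the bone marrow array stood alone. For 54 of the 692 higher genes (7.80%) it was at least 2-fold over each of the other 4 arrays. Besides Mpo and Elane these included Itgb2l, an integrin beta chain gene, at 113 against 16.7 to 28.9 elsewhere, and Wt1, a zinc finger transcription factor, at 86.3 against 22.5 to 31.0. Hmgb2, a chromatin protein of dividing cells, read 294 against 37.4 to 111. Eef1b2, a translation elongation factor subunit, read 138 against 18.2 to 43.3, and Ids, a lysosomal sulphatase, 298 against 84.0 to 96.9. The other Ids probe set above the floor read 74.3 and 48.0, and Hmgb2 was read by a suffixed probe set. More of the higher genes were low in Fos+/+ spleen alone. For 76 of the 692 (11.0%) that array was at least 2-fold under each other array. Slc25a3, for example, read 18.1 in Fos+/+ spleen, 174 in bone marrow, 155.5 in Fos-/- spleen, 130.5 for deltaNFAT and 149.6 for GFP.

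Among genes lower in bone marrow, part of the large folds were low in that array alone. Smarcb1, a core subunit of the SWI/SNF chromatin remodelling complex, read 17.3 in bone marrow and 286, 277, 274 and 285 in Fos+/+ spleen, Fos-/- spleen, deltaNFAT and GFP, at least 14.3-fold lower in bone marrow. For 66 of the 380 lower genes (17.4%) bone marrow was at least 2-fold under each other array. Arfgap2 was at least 13.1-fold lower, with 262 in Fos+/+ spleen, 207 in Fos-/- spleen, 77.0 for deltaNFAT and 42.4 for GFP. The adaptor Bcar1 read 41.8 in bone marrow and 247 in Fos+/+ spleen (5.90-fold). Notch3, a Notch receptor, was 10.3-fold lower at 21.5 against 222, with 203 in Fos-/- spleen, 50.4 for deltaNFAT and 41.9 for GFP. The kinase Akt2 was 4.96-fold lower at 37.8 against 187, with 185 in Fos-/- spleen and 82.7 and 81.8 in the virus arrays. For 211 of the 380 (55.5%) both virus arrays lay within 2-fold of bone marrow, and for 258 (67.9%) Fos-/- spleen lay within 2-fold of Fos+/+ spleen.

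In other genes the Fos+/+ spleen array stood alone. For 71 of the 380 lower genes (18.7%) it was at least 2-fold over each other array. Fam102a read 330 in Fos+/+ spleen, 25.3 in bone marrow and 7.3 to 43.6 in the Fos-/- arrays, and was 13-fold lower in bone marrow. Chchd10, a mitochondrial protein, read 672 in Fos+/+ spleen, 166 in bone marrow, 104 in Fos-/- spleen, 89.8 for deltaNFAT and 33.6 for GFP (4.04-fold). Git1, a GTPase-activating scaffold, read 324 against 80.6 in bone marrow and 46.3 to 55.0 elsewhere (4.02-fold). Dapk2, a calcium-regulated kinase, read 131 against 24.6 to 34.2. The phosphatase Ptpn22 was at least 4.84-fold and the arginine deiminase Padi2 at least 4.63-fold lower in bone marrow, both with 92.6 to 96.8 in Fos+/+ spleen.

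**Figure D5:**
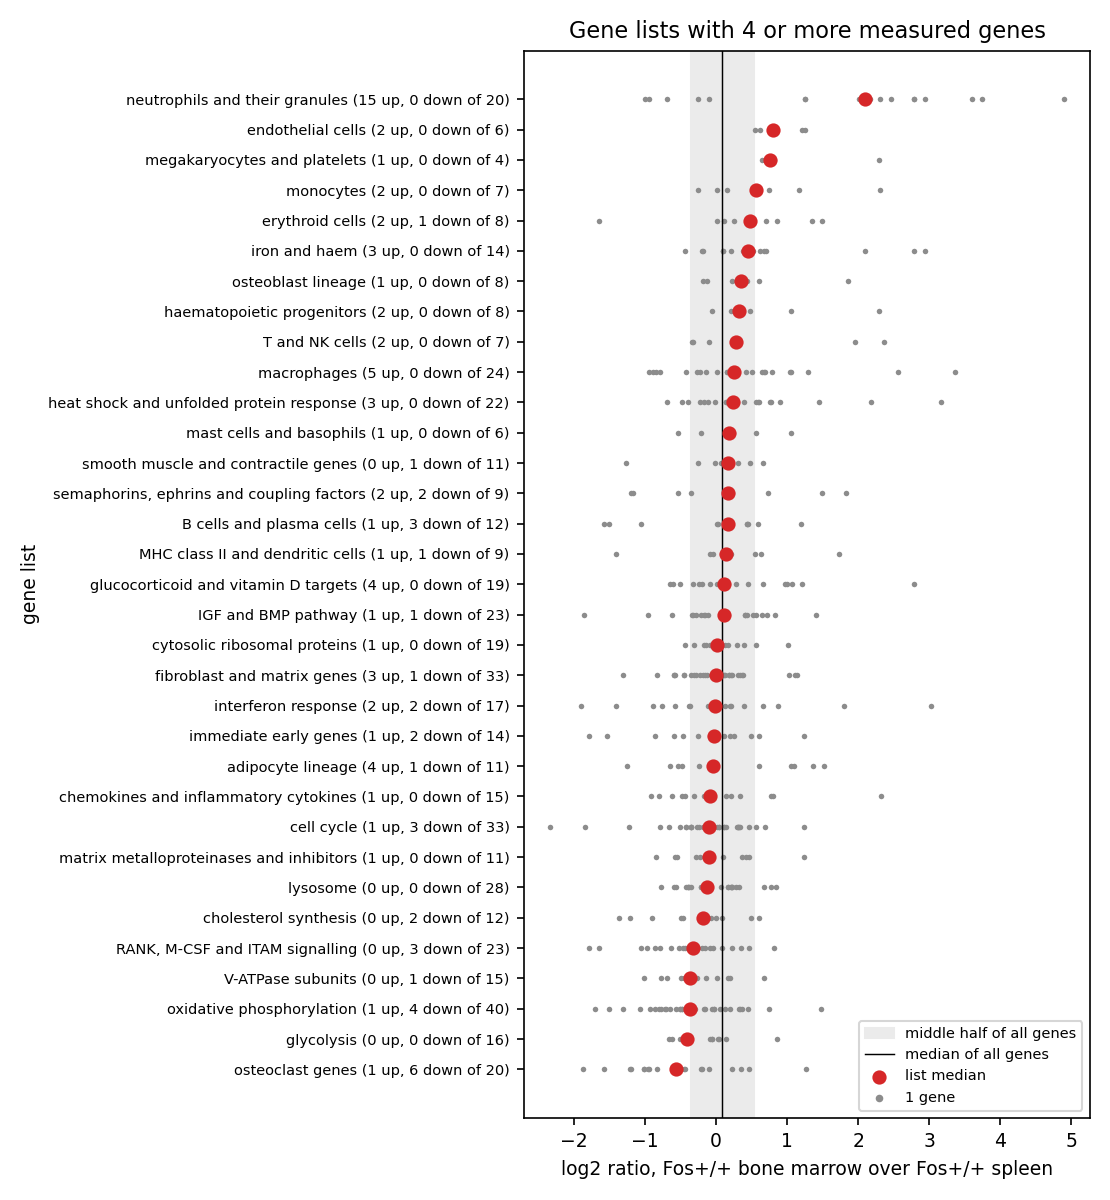
Log2 ratio of Fos+/+ bone marrow over Fos+/+ spleen for every gene list with at least 4 measured genes, with genes as grey points, the list median in red and the median and quartiles of all 6094 genes as a line and a band. The neutrophil list has the highest median (2.10) and the osteoclast list the lowest (-0.57), and counts in brackets give genes past 2-fold.

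Stromal differentiation and growth factor lists had medians between the quartiles of all genes (-0.36 and 0.54). The adipocyte list had 4 of 11 higher and 1 lower (median -0.04), beside 13.1% and 7.20% over all genes. Lpl, lipoprotein lipase, read 1207 in bone marrow, 469.5 in Fos+/+ spleen, 126 in Fos-/- spleen, 783 for deltaNFAT and 569.6 for GFP (2.57-fold). Fabp4, a fatty acid carrier of adipocytes and macrophages, was 2.15-fold higher at 203 against 94.7, and Fasn, fatty acid synthase, 2.39-fold lower at 57.8 against 138. The osteoblast list (median 0.36) had 1 of 8 higher, the cadherin Cdh11 at 75.3 against 20.8. Tnfrsf11b, the decoy receptor of RANK ligand, read 113 and 97.4. In the IGF and BMP list 1 of 23 was higher and 1 lower (median 0.12), and these were 2 of the Id inhibitors of helix-loop-helix factors. Id4 was 2.65-fold higher at 60.1 against 22.7, and Id1 at least 3.62-fold lower, with 72.4 in Fos+/+ spleen.

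Among secreted and cell cycle genes few were called higher in bone marrow. Cxcl13, a B cell attractant, read 1155 in bone marrow, 230.3 in Fos+/+ spleen, 371 in Fos-/- spleen, 917 for deltaNFAT and 971 for GFP (5.01-fold), the 1 higher gene of 15 measured chemokines and cytokines. Ccl9, which osteoclasts make, read 1554 and 2171. Of 33 measured cell cycle genes (median -0.10), 25 were bright enough for a call. Of these, 1 was higher and 3 were lower, beside 13.1% and 7.20% over all genes. Mki67, the proliferation antigen gene, was 2.36-fold higher at 107 against 45.3, and its other probe set read 109 and 6.5. The cyclin Ccna2 was 2.33-fold lower at 66.4 against 155, and thymidine kinase Tk1 at least 5.05-fold lower, with 101 in Fos+/+ spleen. Egr1, an immediate early gene, was 2.91-fold lower at 90.4 against 263, a call lost with the mean of all probe sets.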

How the data were processed

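RNA of 5 co-cultures was hybridised to 1 one-colour oligonucleotide array each. The deposited table holds linear intensity values, and its software is not given in sources used here. Each array's mean, trimmed by 2% at both ends, was 100.1, which points to scaling, and 20.3 to 22.4% of values were 0 or less, which points to background subtraction. They were used as deposited, with values under 20 set to 20 before log2. Names came from the platform annotation (396 probe sets had several symbols, 1193 none and 66 were controls), and a match by gene ID to RefSeq (GRCm38.p6) succeeded for 10817 and changed 0 names. The probe set brightest over the 5 arrays stood for a gene. Analyses used Python 3.11.15 with pandas 2.3.3 and numpy 2.4.6, and the call rule was tested on simulated data.

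The members and the 34 gene lists were chosen with earlier results of these data known. Named genes were, at 80 or more in the brighter array, the 15 largest folds each way above the floor, the 6 brightest each way at the floor, the 10 largest folds of bone marrow and of spleen over the other 4 arrays, the 12 largest folds equally high in the virus arrays and up to 6 genes per list, with all osteoclast list members, Fos, Jun and Csf1r. Other genes were chosen after their values were seen, mostly to complete a list. Alternatives were quantile normalization, median centring, floors of 10, 50 and 100, the mean of all probe sets, probe sets without a suffix, and 3-fold. Precision is limited by having 1 array per group.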

Additional observations from a re-analysis of the deposited data

How the results depend on the processing

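Counts depended on the floor and on the fold. At a floor of 50, 344 genes were higher in bone marrow, 191 lower and 243 equally high in both virus arrays. At a floor of 100 these numbers were 156, 83 and 115, and with a call at 3-fold they were 259, 124 and 187. Under the other alternatives the 3 counts stayed within 1.5 times. The count of higher neutrophil list members was 11 to 15 at 2-fold, and 2 lower ones were counted after quantile normalization and after median centring. The count of lower osteoclast list members was 5 to 8 at 2-fold, and 1 at 3-fold. Of 236 recomputed list medians, 11 others moved by 0.25 or more, and the T and NK cell list (0.28) turned to -0.081 after quantile normalization. With probe sets without a suffix the log2 ratios of Cox4i1 (0.60) and Atp5d (0.28) changed sign. Of 116 named calls, 90 were kept under all alternatives apart from the floors and the 3-fold rule, and 41 under the floors as well, 28 of 64 higher and 13 of 52 lower genes. No paired analysis was possible because each group has 1 array. Genes near the floor are limited by noise, since the 1st percentile of an array ran from -133 in bone marrow to -77.6 for deltaNFAT. It was -90.2 in Fos+/+ spleen. Genes called lower with bone marrow at or under the floor fall under this limit.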

Other observations

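Lists of other blood and vessel cells given here held 4 to 12 measured genes, some dim and some, such as Klf1 and Pax5, bright. All 6 measured endothelial genes had a ratio above 1 in bone marrow over spleen, with a median log2 ratio of 0.80, which was 0.43 at a floor of 50. Cdh5, a cadherin of endothelial junctions, read 46.3 in bone marrow and under the floor in the other 4 arrays, and Flt1, a receptor for vascular endothelial growth factor, read 54.5 against 22.9. All 4 measured platelet genes had ratios above 1. Their median was 0.76, but 1.73 at a floor of 10 and 1.72 at a floor of 50. Gp9, a subunit of the von Willebrand factor receptor, read 164 in bone marrow, 33.4 in Fos+/+ spleen, 45.6 in Fos-/- spleen, 102 for deltaNFAT and 91.7 for GFP. In the erythroid list 2 of 8 were higher and 1 lower, among them the membrane anchor Ank1 (2.55-fold higher), whose other probe set above the floor read 183 and 147 and whose call was lost with the mean of all probe sets and with probe sets without a suffix. In the B cell list 1 of 12 was higher and 3 lower, with Ebf1 at 83.9 against 36.7, a call lost after quantile normalization and at floors of 50 and 100, and Cd72 at 43.7 against 131. In the T and NK list Cd4 was 5.15-fold higher at 129 against 25.0, beside 167 in Fos-/- spleen, while the T cell receptor genes were under the floor.

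The interferon response list (median -0.01) held 2 of 17 higher and 2 lower genes. Ifi202b, at 164 in bone marrow, 19.9 in Fos+/+ spleen, 319 for deltaNFAT and 203 for GFP, and Ifi204, at 210 against 60.1, belong to 1 family of interferon-inducible genes and may share probe sequence. Another Ifi204 probe set read 123 and 137, and the Ifi204 call was lost with the mean of all probe sets and with probe sets without a suffix. Irf9, a subunit of the interferon-activated factor ISGF3, read 23.2 in bone marrow, 86.6 in Fos+/+ spleen, 98.8 in Fos-/- spleen, 243 for deltaNFAT and 232 for GFP. In the cholesterol synthesis list 0 of 12 were higher and 2 lower, Fdps (2.58-fold) and Sqle (2.31-fold). Both calls were lost at a floor of 100, and that of Fdps also with the mean of all probe sets. Sema3e, a secreted semaphorin, was at least 3.56-fold higher in bone marrow at 71.1, and Efnb2, an ephrin, 2.24-fold lower at 22.7 against 50.8.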
